A study of Mus musculus with 6 samples.

Results

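The genes described here encode fibronectin and a set of secreted proteins that are deposited beside it: Fn1, Postn, Tnc, Sparc, Thbs1, Thbs2, Lox, Fbln2, Fbn1 and Tgfbi. They were taken by symbol from the deposited expression table, and all 10 were present among its 38924 genes. The study reprogrammed mouse fibroblasts into induced myogenic progenitor cells (iMPCs) and compared their transcriptome with that of satellite cells, which are the muscle's own stem cells. Poly(A)-selected RNA was sequenced in 6 libraries of 5 groups. Quiescent satellite cells (QSC) came from mouse 1 and mouse 3 with a library each. There was 1 library of activated satellite cells (ASC), titled Pax7-plus and p1. The iMPCs carried a nuclear GFP reporter of Pax7, a transcription factor of satellite cells, and were sorted on it into a Pax7-positive and a Pax7-negative fraction with 1 library each. Mouse embryonic fibroblasts (MEF) had 1 library. Expanded iMPC cultures were grown without doxycycline, in forskolin at 5 µM, a GSK3 inhibitor at 3 µM and RepSox at 5 µM, which blocks the TGF-beta type I receptor. The protocols start reprogramming from MEFs and from tail-tip fibroblasts without saying which gave the sorted cultures, and neither strain, age, clone nor the medium of the ASC and MEF libraries is given in the labels.

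Fibronectin is a large glycoprotein that cells assemble into fibrils through integrins, and these fibrils serve as an early scaffold on which collagen and other matrix proteins are laid down. Matricellular proteins such as tenascin-C, periostin, SPARC and the thrombospondins are secreted into the same space but mainly modulate adhesion, growth factor activity and collagen assembly, while fibrillin, fibulin and lysyl oxidase build and cross-link elastic microfibrils. In skeletal muscle, fibronectin and tenascin-C are known as components of the transient matrix around satellite cells during regeneration, and fibroblasts are a major source of most of these proteins.

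The libraries held between 20859611 and 29279686 counts on genes. Pax7 was listed at 0 in MEF and lay between 1.48 and 23.8 RPKM (read counts scaled to the length of the gene and the total of the library) elsewhere, with 8.73 RPKM in the Pax7-positive and 1.48 RPKM in the Pax7-negative fraction. The QSC of mouse 1 and mouse 3 were apart in Pax7, at 4.83 and 23.8 RPKM, and ASC was at 4.31 RPKM. The 10 satellite cell markers summed to 976 and 953 RPKM in QSC and to 65.5 RPKM in MEF. The QSC mice differed in Xist (0.00384 and 22.7 RPKM) and in the Y-linked Ddx3y (70.2 and 0.0372 RPKM). In ASC, Pax7-positive iMPCs, Pax7-negative iMPCs and MEF, Xist was at 0.0027, 2.59, 1.68 and 2.71 RPKM. Ddx3y was at 20.4, 0, 0.0353 and 0.0278 RPKM in the same order, and the part of sex in the differences was not tested. Mouse 1 had larger sums of endothelial (79.0 against 15.0 RPKM), immune (138 against 64.9 RPKM) and erythroid (1555 against 26.2 RPKM) marker RNA than mouse 3. Of the immune sums Lyz2 held 103 and 32.8 RPKM, and Cd68 and Cd3e were lower in mouse 1. The muscle differentiation markers of mouse 1 also summed to more (207 against 39.8 RPKM), of which Myog held 91.5 and 2.10 RPKM. In RNA from many cells, fewer cells of a type and less RNA per cell cannot be told apart. QSC were freshly isolated, whereas the 4 other groups were cultured cells. Culture and cell type therefore cannot be told apart in any difference from QSC, and the part of culture was not tested. The 4 groups of 1 library have no replicate of their own. The p-values against QSC therefore rest on the spread between the 2 QSC mice. They assume that each lone library would vary as these mice did. The spread was largely pooled over genes, with 16.3 prior degrees of freedom against 1 residual. A gene's own gap between the mice thus enters its SE and p-value only in part. These p-values come from edgeR's quasi-likelihood test and were adjusted by the Benjamini-Hochberg procedure over all genes tested (BH-adjusted).

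The 10 genes together took the smallest share of all counts in QSC and the largest in MEF. They held 0.165% and 0.117% of counts in the QSC of mouse 1 and mouse 3, 0.351% in ASC, 0.289% in Pax7-positive iMPCs, 0.630% in Pax7-negative iMPCs and 2.37% in MEF. Sparc alone made up 72.1% and 73.5% of this share in the QSC libraries and 15.7% in MEF. By length-scaled level, 9 of the 10 genes were highest in MEF, and Tgfbi was highest in Pax7-negative iMPCs. Among the 12662 genes that reached 5 CPM (counts scaled to the library total) in some library, 17% were highest in MEF. Levels were also higher in Pax7-negative than in Pax7-positive iMPCs for 9 of the 10 genes, Tnc being the exception, against 49.5% of all such genes. For 8 of the 10 the Pax7-negative fraction lay between the Pax7-positive fraction and MEF, an order that 24% of all such genes followed.

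**Figure D1:**
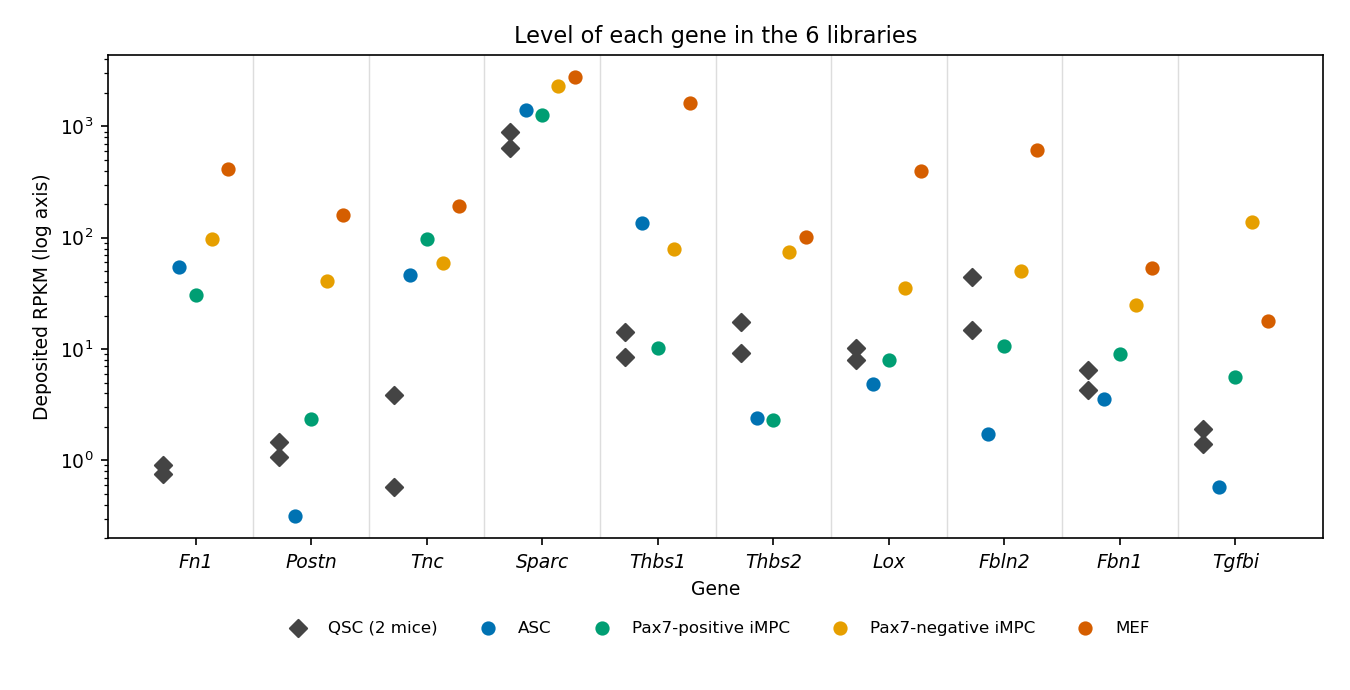
Deposited RPKM of each of the 10 genes (horizontal axis) on a log axis (vertical), with 1 point per library: grey diamonds for the 2 QSC mice and coloured circles for the ASC, Pax7-positive iMPC, Pax7-negative iMPC and MEF libraries. The MEF point is the highest for 9 genes, Tgfbi peaks in Pax7-negative iMPCs at 137.6 RPKM, and Sparc stays between 641 and 2771 RPKM.

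**Figure D2:**
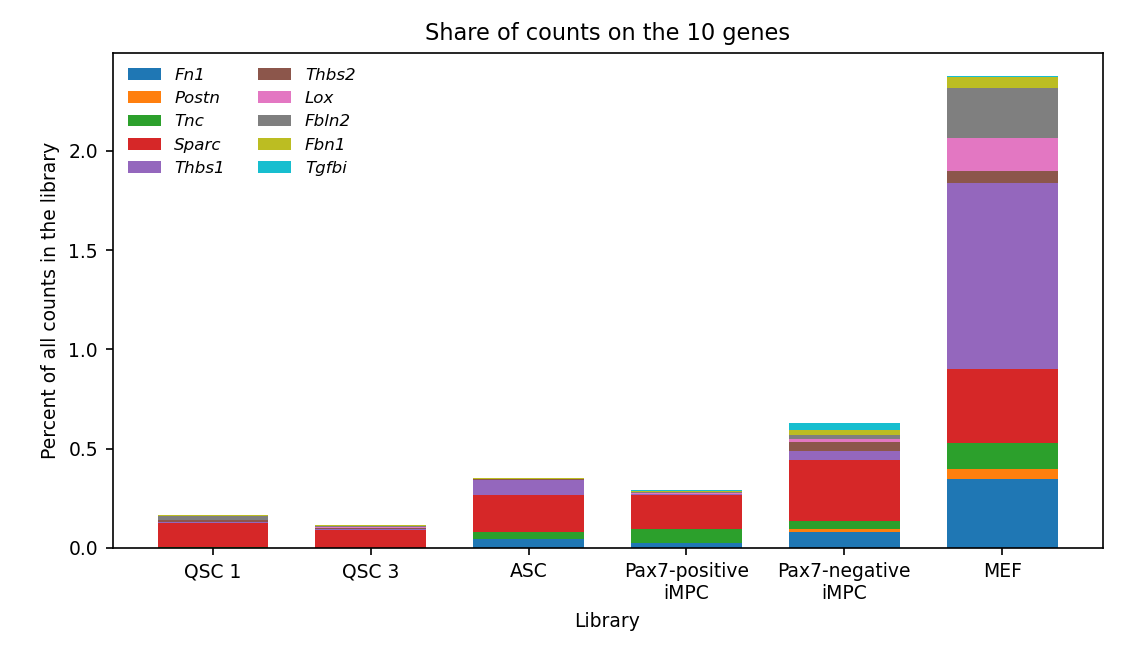
Percent of all counts in each of the 6 libraries that fell on the 10 genes, stacked by gene in 10 colours, with bars starting at 0. The total runs from 0.117% in the QSC of mouse 3 to 2.37% in MEF, where Thbs1 and Fn1 are among the widest bands and Sparc no longer dominates.

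Fn1 (ENSMUSG00000026193), which encodes fibronectin, was lower in QSC than in every other library. It measured 0.904 and 0.751 RPKM in the 2 QSC mice, 54.1 RPKM in ASC, 30.5 RPKM in Pax7-positive iMPCs, 97.2 RPKM in Pax7-negative iMPCs and 416 RPKM in MEF. The lowest of the 4 lone libraries was the Pax7-positive fraction, and none of them overlapped the QSC pair. The log2 difference from QSC was 5.44 ± 0.69 (SE) in ASC (BH-adjusted p = 3.37e-05, edgeR quasi-likelihood), based on 9382 counts against 220 and 181. In Pax7-positive iMPCs Fn1 rose by 4.53 ± 0.67 (BH-adjusted p = 0.000213, edgeR quasi-likelihood). In Pax7-negative iMPCs it rose by 6.16 ± 0.71 (BH-adjusted p = 2.16e-05, edgeR quasi-likelihood). MEF stood highest, with a rise of 8.33 ± 0.77, or 322-fold (BH-adjusted p = 4.85e-06, edgeR quasi-likelihood). Against either mouse alone, Fn1 had the largest rise of the 10 genes in Pax7-negative iMPCs and in MEF. In ASC and in Pax7-positive iMPCs the leading rise depended on the mouse: it was that of Fn1 against mouse 1 (5.26 and 4.35 in the same order) and that of Tnc against mouse 3 (5.77 and 6.75).

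Tnc (ENSMUSG00000028364) encodes tenascin-C, a multi-armed glycoprotein that binds fibronectin and counters cell adhesion to it. It was the only other gene of the 10 that rose in all 4 groups. Its levels were 3.84 and 0.574 RPKM in the QSC of mouse 1 and mouse 3, 46.4 RPKM in ASC, 96.99 RPKM in Pax7-positive iMPCs, 59.4 RPKM in Pax7-negative iMPCs and 191 RPKM in MEF. None of the 4 lone libraries overlapped the QSC pair, but the pair itself was 7.11-fold apart, the widest gap of any of the 10 genes. Among all genes at 5 CPM in either mouse, 2.73% were at least 4-fold higher in mouse 1 and 1.17% at least 4-fold higher in mouse 3. The log2 rise over QSC was 3.77 ± 0.82 in ASC, 4.75 ± 0.84 in Pax7-positive iMPCs, 4.01 ± 0.82 in Pax7-negative iMPCs and 5.76 ± 0.87 in MEF (BH-adjusted p = 0.00349, 0.000895, 0.00274 and 0.000222, edgeR quasi-likelihood). Against mouse 1 alone these differences were 2.96, 3.94, 3.19 and 4.95, and against mouse 3 alone 5.77, 6.75, 6.004 and 7.76. The SE, pooled largely over genes, holds the gap between the mice only in part. The part of sex, of the Pax7 level and of the muscle differentiation, endothelial, immune and erythroid RNA in the gap between the mice was not tested.

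Postn, Thbs2 and Tgfbi were the 3 genes with the largest ratios between the iMPC fractions, all in favour of the Pax7-negative cells. Postn (ENSMUSG00000027750) encodes periostin, a ligand of integrins that is made by fibroblasts and aids collagen cross-linking. Its levels were 1.47 and 1.07 RPKM in QSC, 0.315 RPKM in ASC, 2.37 RPKM in Pax7-positive iMPCs, 40.4 RPKM in Pax7-negative iMPCs and 161 RPKM in MEF. ASC lay below the QSC pair, the Pax7-positive fraction above it in RPKM but inside it after TMM scaling (which takes account of the composition of each library), and the 2 remaining libraries above it on both scales. Postn fell by 2.61 ± 0.73 on the log2 scale in ASC, where it had 20 counts (BH-adjusted p = 0.0179, edgeR quasi-likelihood). It rose by 4.27 ± 0.61 in Pax7-negative iMPCs and by 6.34 ± 0.65 in MEF (BH-adjusted p = 0.000134 and 8.77e-06, edgeR quasi-likelihood), while the difference in Pax7-positive iMPCs was 0.21 ± 0.61 (BH-adjusted p = 0.837, edgeR quasi-likelihood). Scaled by library size the fall in ASC was 2.01 with an adjusted p of 0.0813 (BH, edgeR quasi-likelihood), and in a fit of the QSC and ASC libraries alone the adjusted p was 0.106.

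Thbs2 (ENSMUSG00000023885) encodes thrombospondin-2, which restrains angiogenesis and shapes collagen fibrils. It was measured at 17.4 and 9.22 RPKM in QSC, 2.38 RPKM in ASC, 2.33 RPKM in Pax7-positive iMPCs, 74.1 RPKM in Pax7-negative iMPCs and 102 RPKM in MEF. ASC and Pax7-positive iMPCs lay below both mice, which were themselves 2.00-fold apart, and Pax7-negative iMPCs and MEF lay above both. Thbs2 fell by 3.09 ± 0.74 in ASC and fell by 3.20 ± 0.75 in Pax7-positive iMPCs (BH-adjusted p = 0.00715 and 0.00628, edgeR quasi-likelihood). Against mouse 3 alone the differences were -2.49 and -2.61, and with library size scaling neither fall passed the threshold of 0.05 (BH-adjusted p = 0.0613 and 0.0577, edgeR quasi-likelihood). In MEF it rose by 2.29 ± 0.60 (BH-adjusted p = 0.0132, edgeR quasi-likelihood). The difference in Pax7-negative iMPCs was 1.75 ± 0.60 and did not pass (BH-adjusted p = 0.0520, edgeR quasi-likelihood), although it did without the filter on low counts and with library size scaling (0.0243 and 0.0424).

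Tgfbi (ENSMUSG00000035493) encodes a secreted fasciclin-domain protein related to periostin and named for its induction by TGF-beta. Its level was 1.90 and 1.39 RPKM in QSC, 0.573 RPKM in ASC, 5.57 RPKM in Pax7-positive iMPCs, 137.6 RPKM in Pax7-negative iMPCs and 17.8 RPKM in MEF. It was the only gene of the 10 with its peak outside MEF, and its ASC level lay below the QSC pair. The log2 rise was 5.66 ± 0.63 in Pax7-negative iMPCs and 2.79 ± 0.59 in MEF (BH-adjusted p = 1.63e-05 and 0.00313, edgeR quasi-likelihood). In ASC Tgfbi fell by 2.12 ± 0.70 (BH-adjusted p = 0.0412, edgeR quasi-likelihood), a call that was lost with library size scaling and in the fit of QSC and ASC alone (0.135 and 0.153). The Pax7-positive fraction differed by 1.08 ± 0.59, which did not pass (BH-adjusted p = 0.209, edgeR quasi-likelihood).

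RefSeq promoter entries (assembly GRCm38.p6) were matched for 7 of the 10 genes, those not matched being Fn1, Thbs1 and Lox. The entries of Postn, Thbs2 and Tgfbi are shown because these genes separated the iMPC fractions most; each is the 250 bases upstream of the RefSeq start, 5′ to 3′ on the gene's strand, and for Postn the downstream of its 2 entries. Capitals mark 2 motifs on either strand, as read or as the reverse complement. The first, TATAAA, is the core of the TATA element, and the second, CAGAC, is the element bound by SMAD proteins, which relay TGF-beta signals.
Postn, chr3:54360857-54361106, plus strand: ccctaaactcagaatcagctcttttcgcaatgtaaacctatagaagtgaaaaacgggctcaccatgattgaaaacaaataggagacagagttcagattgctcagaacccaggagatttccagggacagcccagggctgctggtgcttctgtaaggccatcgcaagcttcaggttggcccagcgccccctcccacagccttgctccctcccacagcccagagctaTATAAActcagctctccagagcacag
Thbs2, chr17:14694263-14694512, minus strand: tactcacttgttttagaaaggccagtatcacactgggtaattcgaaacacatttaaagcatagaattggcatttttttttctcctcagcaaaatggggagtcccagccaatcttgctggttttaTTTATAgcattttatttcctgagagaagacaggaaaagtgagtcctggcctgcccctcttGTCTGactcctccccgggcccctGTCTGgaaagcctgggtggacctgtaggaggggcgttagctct
Tgfbi, chr13:56609336-56609585, plus strand: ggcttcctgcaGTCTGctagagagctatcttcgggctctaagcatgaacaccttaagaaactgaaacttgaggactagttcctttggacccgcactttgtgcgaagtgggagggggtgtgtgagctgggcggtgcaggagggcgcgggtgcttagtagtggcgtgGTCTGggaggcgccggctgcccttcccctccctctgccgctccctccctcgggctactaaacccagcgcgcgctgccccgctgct
The Postn sequence, with 52.0% G and C, held a TATAAA from base -26 to base -21 before the start and no CAGAC. The Thbs2 sequence, with 46.8% G and C, held TATAAA on the opposite strand from base -126 to base -121 and CAGAC on the opposite strand at bases -66 to -62 and -43 to -39. The Tgfbi sequence, with 62.4% G and C, held CAGAC on the opposite strand at bases -239 to -235 and -85 to -81, no TATAAA, and the GC box GGGCGG at bases -124 to -119. Among 32851 promoter entries of the same length, 12.4% held TATAAA, 42.2% CAGAC and 32.7% GGGCGG on at least 1 strand. TGANTCA, the element of AP-1 factors, was in 6.75% of all entries and in none of the entries of the 7 genes. The other Postn entry, not printed, held CAGAC from base -191 to base -187 and no TATAAA, so CAGAC was in an entry of each of these 3 genes. It was also in the entry of Sparc (bases -35 to -31) and in 1 of the 2 entries of Tnc (bases -70 to -66). These 2 genes had smaller ratios between the iMPC fractions. The entries of Fbln2 (4.59-fold between the fractions) and Fbn1 (2.71-fold) held no CAGAC. A link between the motif and the ratios was not tested. The share of 42.2% is per entry, whereas Postn and Tnc had 2 entries each. None of the 4 motifs was in all 3 printed sequences.

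Thbs1 (ENSMUSG00000040152) encodes thrombospondin-1, an adhesive glycoprotein that can release TGF-beta from its latent complex. It measured 8.41 and 14.2 RPKM in QSC, 136.8 RPKM in ASC, 10.2 RPKM in Pax7-positive iMPCs, 79.3 RPKM in Pax7-negative iMPCs and 1632 RPKM in MEF. The Pax7-positive level was inside the range of the QSC mice in RPKM and below both after TMM scaling, whereas ASC, Pax7-negative iMPCs and MEF lay above it. By RPKM, Thbs1 had rank 16 among all genes in MEF. Thbs1 rose by 3.02 ± 0.71 in ASC and by 6.55 ± 0.79 in MEF (BH-adjusted p = 0.0062 and 3.03e-05, edgeR quasi-likelihood). In Pax7-negative iMPCs it rose by 2.11 ± 0.71 (BH-adjusted p = 0.0457, edgeR quasi-likelihood), a call lost with DESeq2 size factors in edgeR (0.0673) and with a filter at 5 CPM (0.0578). The Pax7-positive fraction was 0.81 ± 0.76 below QSC, which did not pass (BH-adjusted p = 0.472, edgeR quasi-likelihood).

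Sparc (ENSMUSG00000018593) encodes the collagen-binding calcium protein also called osteonectin. It was by far the most abundant of the 10 genes in QSC, with 885 and 641 RPKM, and measured 1393 RPKM in ASC, 1267 RPKM in Pax7-positive iMPCs, 2300 RPKM in Pax7-negative iMPCs and 2771 RPKM in MEF. All 4 lone libraries were above both mice in RPKM. After TMM scaling the log2 differences from QSC were 0.27 ± 0.74 in ASC, 0.05 ± 0.75 in Pax7-positive iMPCs, 0.87 ± 0.73 in Pax7-negative iMPCs and 1.22 ± 0.72 in MEF. None passed the threshold (BH-adjusted p = 0.833, 0.979, 0.426 and 0.249, edgeR quasi-likelihood). By rank among all genes Sparc stood at 87 and 151 in the QSC mice, 28 in ASC, 24 in Pax7-positive iMPCs, 6 in Pax7-negative iMPCs and 5 in MEF.

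Lox, Fbln2 and Fbn1 belong to the microfibril and cross-linking side of the family, and none of these 3 genes passed the test as higher in ASC or in either iMPC fraction. Lox (ENSMUSG00000024529), which encodes the lysyl oxidase that cross-links collagen and elastin, measured 10.2 and 7.92 RPKM in QSC, 4.83 RPKM in ASC, 7.91 RPKM in Pax7-positive iMPCs, 35.6 RPKM in Pax7-negative iMPCs and 399 RPKM in MEF. Only MEF differed from QSC by the test, with a rise of 4.82 ± 0.62 (BH-adjusted p = 5.51e-05, edgeR quasi-likelihood). The differences of the other 3 groups were -1.50 ± 0.66, -0.88 ± 0.64 and 1.25 ± 0.59 in the same order (BH-adjusted p = 0.119, 0.348 and 0.151, edgeR quasi-likelihood). By DESeq2 the difference in ASC passed (-1.59, BH-adjusted p = 0.0431).

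Fbln2 (ENSMUSG00000064080) encodes a fibulin that bridges fibronectin, fibrillin and basement membrane proteins. It was present at 44.3 and 14.9 RPKM in the QSC of mouse 1 and mouse 3, 1.73 RPKM in ASC, 10.7 RPKM in Pax7-positive iMPCs, 50.6 RPKM in Pax7-negative iMPCs and 618 RPKM in MEF. ASC and Pax7-positive iMPCs lay below the pair, which was 3.15-fold apart after TMM scaling, and Pax7-negative iMPCs lay within it on that scale. Fbln2 fell by 4.71 ± 0.93 in ASC, or by 5.30 against mouse 1 and 3.64 against mouse 3, and rose by 3.72 ± 0.70 in MEF, or by 3.12 and 4.78 (BH-adjusted p = 0.00178 and 0.00139, edgeR quasi-likelihood). In Pax7-positive iMPCs the difference of -2.16 ± 0.80 did not pass (BH-adjusted p = 0.0639, edgeR quasi-likelihood), but it did by DESeq2 (0.0163), without the filter on low counts (0.0283) and in the fit of these 2 groups alone (0.0428). The Pax7-negative difference was 0.04 ± 0.71 (BH-adjusted p = 0.98, edgeR quasi-likelihood), with a sign that changed between settings.

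Fbn1 (ENSMUSG00000027204), which encodes the main protein of microfibrils, had the narrowest range after Sparc. It measured 4.26 and 6.49 RPKM in QSC, 3.59 RPKM in ASC, 8.95 RPKM in Pax7-positive iMPCs, 24.9 RPKM in Pax7-negative iMPCs and 53.4 RPKM in MEF. MEF was above all other libraries and Pax7-negative iMPCs above all but MEF. The rise of 2.68 ± 0.58 in MEF passed (BH-adjusted p = 0.00369, edgeR quasi-likelihood). In ASC, Pax7-positive and Pax7-negative iMPCs the differences were -1.16 ± 0.63, 0.07 ± 0.60 and 1.51 ± 0.58 (BH-adjusted p = 0.205, 0.954 and 0.0777, edgeR quasi-likelihood), of which the last passed with library size scaling (0.0443).

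**Figure D3:**
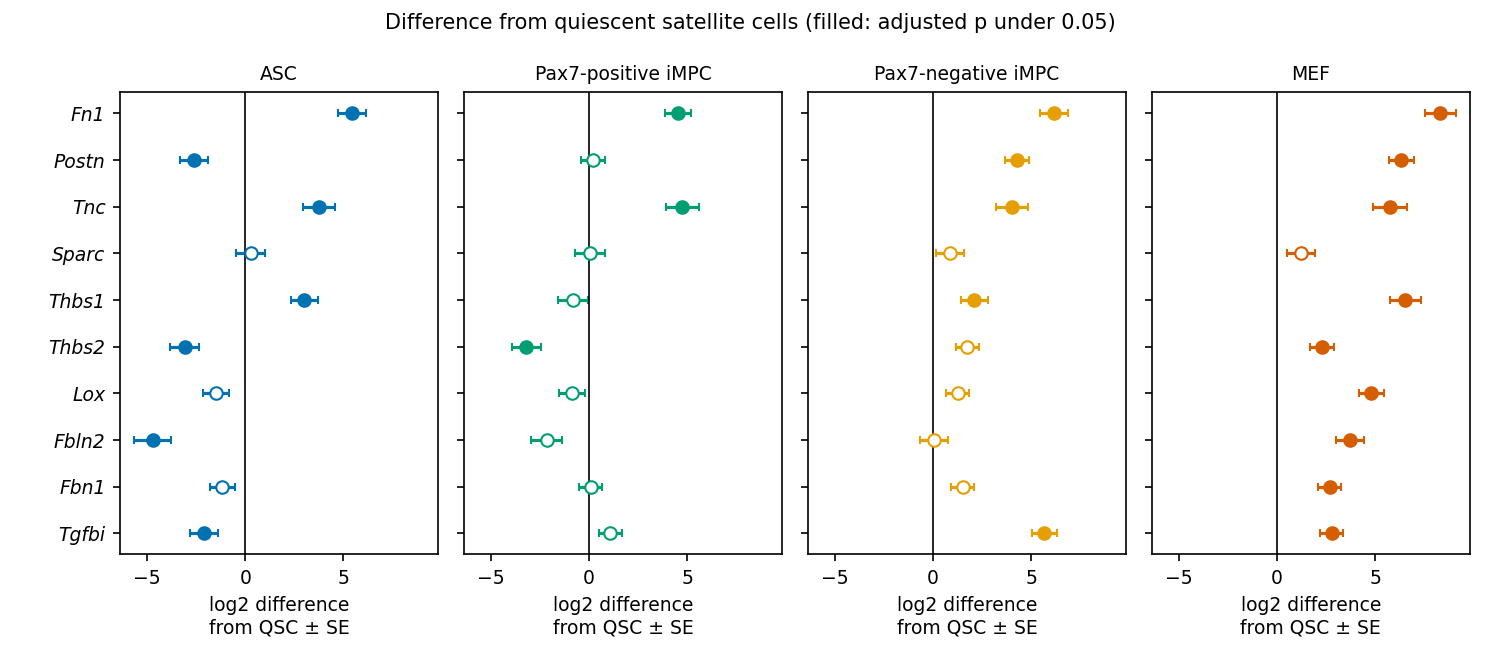
Log2 difference of each gene from QSC (horizontal axis) with its SE, in 4 panels for ASC, Pax7-positive iMPCs, Pax7-negative iMPCs and MEF; filled circles passed an adjusted p of 0.05 by edgeR and open ones did not. Fn1 and Tnc are filled on the right in all 4 panels, Thbs2 changes sides between the panels, and in MEF 9 of 10 circles are filled on the right with Sparc open at 1.22.

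Activated satellite cells differed from quiescent ones in both directions. Fn1, Tnc and Thbs1 rose and Postn, Thbs2, Fbln2 and Tgfbi fell, so 3 of 10 genes were higher and 4 of 10 lower, where 11.8% of all 17116 genes tested were higher and 8.24% lower. The median log2 difference of the 10 genes was -1.33, against 0 over all genes. The count of falls was 1 (Fbln2) with library size scaling, which moved the median of all genes from 0 to 0.59, and 2 (Thbs2 and Fbln2) in the fit of these groups alone. Muscle differentiation markers summed to 14958 RPKM in ASC against 207 and 39.8 RPKM in QSC, and fibroblast markers to 148 RPKM against 259 and 218 RPKM. Col3a1, the largest, held 122 RPKM of the fibroblast sum in ASC. Of the 10 fibroblast markers 7 were under 1 RPKM in ASC, against 3 in each QSC library. The part of muscle differentiation or fibroblast RNA in these differences was not tested.

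In Pax7-positive iMPCs Fn1 and Tnc rose, Thbs2 fell, and the other 7 genes did not pass. These are 2 of 10 higher and 1 of 10 lower, against 11.3% higher and 9.31% lower of all genes tested, and the median difference was 0.06 against -0.03 over all genes. With library size scaling, which moved the latter to 0.60, 0 genes fell by edgeR, with 1 lower at an unadjusted p under 0.05, whereas DESeq2 called 2 lower (Thbs2 and Fbln2). In Pax7-negative iMPCs 5 of 10 genes rose, namely Fn1, Postn, Tnc, Thbs1 and Tgfbi, against 12.1% of all genes, and 0 fell, against 6.57%. The median was 1.93, against 0.15 over all genes. By edgeR 0 of the 10 genes were lower at an unadjusted p under 0.05, and DESeq2 called 0 lower as well. The count of rises was between 4 and 7 over the 6 other settings of the test.

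MEF differed from QSC in 1 direction. By edgeR 9 of 10 genes were higher and 0 lower, against 11.3% and 8.03% of all genes, with 0 lower at an unadjusted p under 0.05 or by DESeq2. The median difference was 4.27 against 0 over all genes, and 4.92 or 3.86 with mouse 3 or mouse 1 alone as the control. The 10 fibroblast markers outside the set summed to 3392 RPKM in MEF against 259 and 218 RPKM in QSC, with Col1a1 (1730 RPKM) and Col1a2 (945 RPKM) making up most of the MEF sum. Of these markers 7 rose in MEF and 2 fell, namely Dcn, from 78.1 and 126 RPKM to 24.7 RPKM, and Dpt, from 65.7 and 38.9 RPKM to 0.525 RPKM (BH-adjusted p = 0.0122 and 6.84e-05, edgeR quasi-likelihood). These 4 markers were named after their values were seen, and the part of fibroblast RNA in the differences was not tested. The 4 groups were all set against the same 2 QSC libraries, so these comparisons are not independent of one another.

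The iMPC fractions were compared directly as single libraries, with no test and no replicate. A difference counted as large at 4-fold or more after TMM scaling, with at least 5 CPM in the higher library, and the 95% intervals given cover counting error only. Pax7-negative cells were higher by this rule in 6 of the 10 genes and lower in 0, where 6.66% and 0.208% of all genes were. Thbs2 was 31.0-fold higher (27.9 to 34.5), Tgfbi 24.1-fold (21.7 to 26.7) and Postn 16.6-fold (14.4 to 19.4). Next came Thbs1 at 7.58-fold (7.18 to 7.995), Fbln2 at 4.59-fold (4.31 to 4.90) and Lox at 4.38-fold (4.06 to 4.72). The remaining ratios were smaller: Fn1 was 3.10-fold, Fbn1 2.71-fold and Sparc 1.77-fold higher. Tnc was 1.68-fold lower in the Pax7-negative fraction, with an interval of 1.64 to 1.72. Fibroblast markers summed to 2109 RPKM in the Pax7-negative and 491 RPKM in the Pax7-positive fraction, with 0 and 3 of the 10 under 1 RPKM; Pdgfra, a marker of mesenchymal cells, was at 19.3 and 0.399 RPKM. Muscle differentiation markers summed to 4520 and 1890 RPKM, and pericyte and smooth muscle markers to 703 and 392 RPKM. Col3a1 held 1053 and 352 RPKM of the fibroblast sums, and Acta2 held 511 and 300 RPKM of the pericyte and smooth muscle sums. Within the latter list Cspg4 and Notch3 were lower in the Pax7-negative fraction and the other markers higher. The part of these cell types in the ratios was not tested.

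**Figure D4:**
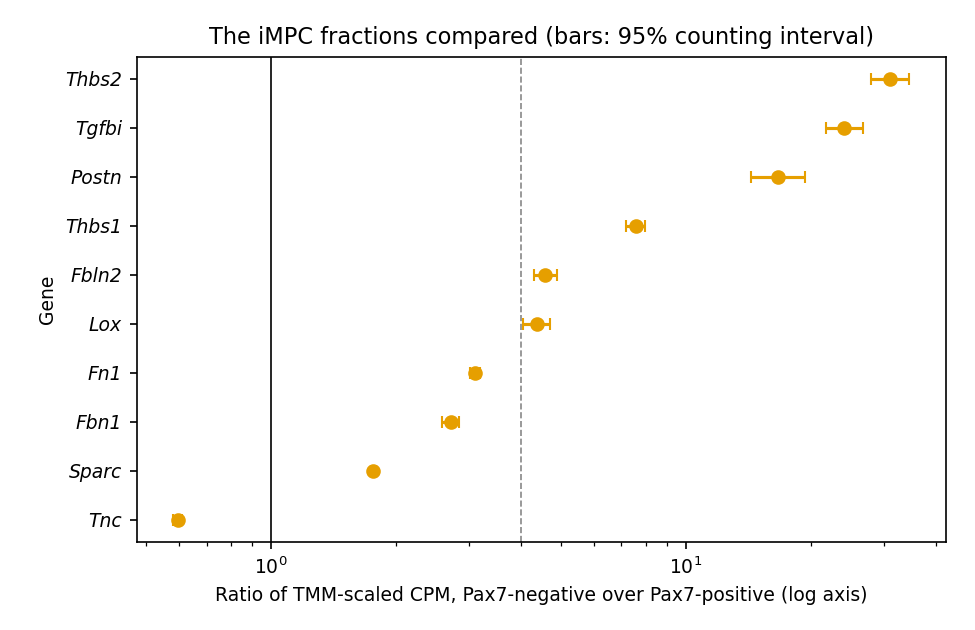
Ratio of TMM-scaled CPM in Pax7-negative over Pax7-positive iMPCs for each of the 10 genes (log axis), with 95% counting intervals from 1 library each; the solid line marks equal levels and the dashed line the 4-fold rule. Points run from Thbs2 at 31.0 down to Sparc at 1.77, and Tnc is the only point left of the solid line.

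Set against MEF by the same rule, Pax7-positive iMPCs were lower in 7 of 10 genes and higher in 0, where 8.71% and 4.97% of all genes were. The gap was widest for Thbs1, 164-fold lower (156 to 173), and narrowest for Tnc, 2.02-fold lower (1.98 to 2.06). Pax7-negative iMPCs were lower than MEF in 5 of 10 genes, against 3.56% of all genes, namely Thbs1 (21.7-fold), Fbln2 (12.9-fold), Lox (11.8-fold), Fn1 (4.51-fold) and Postn (4.197-fold). Tgfbi was higher in them by 7.35-fold (6.90 to 7.83), 1 of 10 against 7.08% of all genes. Postn passed the rule by a narrow margin: with library size scaling or by RPKM its log2 difference was -1.99, short of 4-fold, and 4 of 10 genes were lower. Thbs2 was only 1.45-fold lower in Pax7-negative iMPCs than in MEF.

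Against ASC, Pax7-positive iMPCs were higher in Tgfbi (9.17-fold, 6.39 to 13.6), Postn (7.10-fold, 4.47 to 11.9) and Fbln2 (5.87-fold, 4.94 to 7.02), 3 of 10 where 3.54% of all genes were. They were lower in Thbs1 by 14.2-fold (13.5 to 15.0), 1 of 10 against 7.91% of all genes. Thbs2 differed by less than its counting error, with a ratio of 0.922 (0.789 to 1.08). Pax7-negative iMPCs were higher than ASC in 6 of 10 genes and lower in 0, against 7.39% and 5.18% of all genes, with Tgfbi 221-fold and Postn 118-fold higher. MEF were higher than ASC in 8 of 10 genes and lower in 0, against 6.15% and 7.11%, led by Postn (496-fold) and Fbln2 (347-fold). Tnc, at 3.98-fold, and Sparc, at 1.93-fold, fell short of the rule there. Tnc passed it with library size scaling, with DESeq2 size factors and by RPKM (log2 differences of 2.04, 2.02 and 2.04), which made the count 9 of 10.

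Other matricellular proteins and fibulins showed more falls than rises in Pax7-positive iMPCs. Among 27 tested relatives 4 rose there and 12 fell, with a median of -2.36 against -0.03 over all genes, where 11.3% of all genes rose and 9.31% fell. In Pax7-negative iMPCs 7 rose and 7 fell (12.1% and 6.57% of all genes), in ASC 2 rose and 9 fell (11.8% and 8.24%), and in MEF 12 rose and 6 fell (11.3% and 8.03%). The share of rises in ASC was thus not above that of all genes. The largest rises in Pax7-positive iMPCs were those of Efemp1, a fibulin-type protein, which went from 1.16 and 2.64 RPKM in QSC to 49.5 RPKM (log2 4.05 ± 0.63), and Fbln1, which went from 5.14 and 3.91 RPKM to 105 RPKM (3.85 ± 0.59; BH-adjusted p = 0.000343 and 0.000296, edgeR quasi-likelihood). Tnxb, a tenascin, had 805 and 2702 counts in QSC and 0 counts in Pax7-positive iMPCs and in ASC, at least 843-fold and 630-fold lower with 3 counts over the group as the floor (BH-adjusted p = 5.12e-05 and 2.56e-05, edgeR quasi-likelihood). Vtn, which encodes the adhesive serum protein vitronectin, fell from 88.5 and 86.9 RPKM to 0.186 RPKM in Pax7-positive iMPCs and to 0.132 RPKM in MEF (BH-adjusted p = 1.83e-05 and 9.05e-06, edgeR quasi-likelihood).

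In MEF the relatives with the largest rises were Ibsp, which encodes bone sialoprotein, with 0 counts in QSC and 555 in MEF (at least 298-fold higher, by the same floor), and the tenascin Tnn, with 0 and 2 counts in QSC and 1037 in MEF (BH-adjusted p = 0.000203 and 5.40e-05, edgeR quasi-likelihood). Spock1, a proteoglycan of the SPARC family, fell from 7.43 and 1.02 RPKM to 0.0326 RPKM, or 1 count (BH-adjusted p = 0.0113, edgeR quasi-likelihood). Between the iMPC fractions 7 of the 15 relatives at 5 CPM were higher by 4-fold in Pax7-negative cells and 0 lower, where 6.66% and 0.208% of all genes were. The SPARC relative Smoc2 was at 4.35 RPKM in the Pax7-negative and 0.295 RPKM in the Pax7-positive fraction, and the CCN protein gene Nov at 7.86 and 0.661 RPKM.

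Microfibril, elastic fibre and lysyl oxidase genes other than Fbn1 and Lox were counted in the same way. Of 20 tested, 4 rose and 6 fell in Pax7-positive iMPCs, where 11.3% and 9.31% of all genes did, and 8 rose and 2 fell in Pax7-negative iMPCs (12.1% and 6.57% of all genes). In ASC 3 rose and 5 fell (11.8% and 8.24%), and in MEF 12 rose and 1 fell (11.3% and 8.03%). The 3 rises in ASC, the 2 falls in Pax7-negative iMPCs and the 1 fall in MEF lay near or below the shares of all genes. Between the fractions 9 of 15 were higher by 4-fold in Pax7-negative cells and 0 lower, against 6.66% and 0.208% of all genes. Fbn2, the fibrillin of developing tissues, had 3 and 12 counts in QSC and measured 1.81 RPKM in Pax7-positive iMPCs and 13.4 RPKM in MEF (rises of 5.52 ± 0.77 and 8.45 ± 0.83; BH-adjusted p = 0.000136 and 6.86e-06, edgeR quasi-likelihood). Ltbp2, a microfibril-bound relative of latent TGF-beta binding proteins, rose by 3.40 ± 0.61 in Pax7-positive iMPCs and by 8.52 ± 0.71 in MEF, where it reached 165 RPKM (BH-adjusted p = 0.00105 and 2.81e-06, edgeR quasi-likelihood). Ltbp4, which binds latent TGF-beta and aids elastic fibre assembly, fell by 3.87 ± 0.75 in both, from 114 and 118 RPKM in QSC to 12.6 RPKM in Pax7-positive iMPCs and 12.3 RPKM in MEF (BH-adjusted p = 0.00171 and 0.00168, edgeR quasi-likelihood). Mfap4 and Mfap5, microfibril-associated proteins, fell by 5.08 ± 1.06 and 3.93 ± 1.28 in Pax7-positive iMPCs (BH-adjusted p = 0.00292 and 0.0387, edgeR quasi-likelihood). The lysyl oxidase relative Loxl2 was at 67.7 RPKM in Pax7-negative and 4.05 RPKM in Pax7-positive iMPCs, and the procollagen protease gene Tll1 at 1.99 and 0.116 RPKM, rising in MEF to 23.7 RPKM (8.72 ± 1.08; BH-adjusted p = 3.48e-05, edgeR quasi-likelihood).

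Receptors for these proteins were also measured. Of 16 integrins, syndecan and scavenger receptors tested, 5 rose and 2 fell in ASC (11.8% and 8.24% of all genes), 4 and 3 in Pax7-positive iMPCs (11.3% and 9.31%), 5 and 1 in Pax7-negative iMPCs (12.1% and 6.57%) and 7 and 2 in MEF (11.3% and 8.03%). Apart from the 3 in Pax7-positive iMPCs, the falls were within 1 gene of the share of all genes. Between the fractions 6 of 15 were higher by 4-fold in Pax7-negative than in Pax7-positive cells and 0 lower, against 6.66% and 0.208% of all genes. Itga4, the alpha chain of an integrin that binds fibronectin and Vcam1, had 5 counts and 1 count in QSC and measured 5.26 RPKM in ASC, 8.73 RPKM in Pax7-positive iMPCs, 3.72 RPKM in Pax7-negative iMPCs and 0.629 RPKM in MEF. It rose in Pax7-positive iMPCs by 8.57 ± 0.91 and in MEF by 4.81 ± 0.85 (BH-adjusted p = 1.83e-05 and 0.000861, edgeR quasi-likelihood). Itgb6, the beta chain of a receptor for fibronectin, tenascin-C and latent TGF-beta, rose by 4.82 ± 0.76 in Pax7-positive iMPCs to 5.56 RPKM and was at 24.1 RPKM in ASC and 0.0836 RPKM in MEF (BH-adjusted p = 0.000364 for the first, edgeR quasi-likelihood). Itgb3, the beta chain of receptors for vitronectin and fibronectin, was at 8.61 RPKM in Pax7-negative and 1.03 RPKM in Pax7-positive iMPCs and rose in MEF by 7.07 ± 1.07 (BH-adjusted p = 0.000232, edgeR quasi-likelihood). Sdc4, the co-receptor of fibronectin that marks satellite cells, fell in Pax7-positive iMPCs by 3.42 ± 0.80, from 597 and 590 RPKM to 88.5 RPKM, and in MEF by 3.37 ± 0.80 (BH-adjusted p = 0.00632 and 0.00678, edgeR quasi-likelihood). Cd36, a thrombospondin receptor that endothelial cells also carry, fell in Pax7-positive iMPCs by 5.30 ± 1.13, from 20.8 and 3.26 RPKM to 0.498 RPKM (BH-adjusted p = 0.00347, edgeR quasi-likelihood), and its gap between the mice ran with that of the endothelial markers, whose part in it was not tested.

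TGF-beta ligands, receptors and feedback targets were read beside these genes because several of the 10 are known TGF-beta targets and the iMPC medium held RepSox. Of 12 tested, 1 rose and 4 fell in each iMPC fraction, where 11.3% and 9.31% of all genes did in Pax7-positive and 12.1% and 6.57% in Pax7-negative cells. In ASC 3 rose and 3 fell (11.8% and 8.24%), and in MEF 2 rose and 2 fell (11.3% and 8.03%). The single rises in the iMPC fractions were below the share of all genes. Between the fractions 0 of 11 differed by 4-fold, against 6.66% higher and 0.208% lower of all genes. The feedback inhibitor Pmepa1 was at 4.07 and 15.7 RPKM in the iMPC fractions, below 115 RPKM in ASC, 139 RPKM in MEF and 662 and 610 RPKM in QSC. Tgif1, a transcriptional co-repressor, fell by 3.99 ± 0.78 in MEF (BH-adjusted p = 0.00188, edgeR quasi-likelihood) and lay between 40.4 and 60.2 RPKM in all 4 lone libraries against 589 and 483 RPKM in QSC. Tgfbr2, the type II receptor, rose in Pax7-positive iMPCs by 2.01 ± 0.57 to 54.1 RPKM (BH-adjusted p = 0.0193, edgeR quasi-likelihood). In MEF the ligand gene Tgfb3 and the inhibitory Smad6 rose by 2.72 ± 0.57 and 2.59 ± 0.62 (BH-adjusted p = 0.00314 and 0.00757, edgeR quasi-likelihood). The part of RepSox in any of these levels was not tested, as no library without it was paired with the iMPCs.

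The 10 genes did not share 1 profile over the 6 libraries. Profiles were compared by the root mean square (RMS) difference of log2 CPM, each gene centred on its own mean, which is a description with 6 points that share their libraries. The closest pairs within the set were Sparc and Fbn1 (RMS 0.92), Lox and Fbn1 (1.00) and Lox and Fbln2 (1.06). Among 12661 other genes, those nearest to Fn1 were Sema3c (0.43), Pla2g4a (0.48) and Kif26b (0.55), against a median RMS of 3.09. Nearest to Tnc were Parpbp (0.35), Pif1 (0.40) and 1700019G06Rik (0.48), and nearest to Thbs1 were Msx2 (0.41), Cpe (0.50) and Siglecg (0.56). Sparc, whose range was narrow, had Dap (0.12) and Lrrc8a (0.14) among the nearest, against a median of 0.90. Fbn1 lay closest to the collagen gene Col5a1 (0.15), then Foxc1 (0.35) and Gucy1a2 (0.35). The elastin gene Eln was the nearest to Fbln2 (0.66), followed by Papss2 (0.71) and Flt1 (0.74), and it was among the 3 nearest to Lox (0.54), after Flt4 (0.47) and Itga11 (0.54). For Tgfbi the nearest were Notum (0.47), Ugt1a6b (0.62) and Slc17a6 (0.66), for Thbs2 Gpr39 (0.49), Ebf2 (0.52) and Foxf1 (0.59), and for Postn Lrrc32 (0.67), Mab21l2 (0.73) and Nfatc4 (0.82).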

How the data were processed

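Poly(A)-selected RNA from 6 mouse libraries was made into directional libraries, per the labels' protocols. The mm9 build, Picard 1.100, edgeR, HTSeq 0.6.0 and STAR 2.3.0 are named, without roles, per the submitters' processing notes. How strand was set in the counting, and with which annotation, is not given in the sources used here, so reads of overlapping or antisense genes may be mixed. The deposited tables hold raw read counts per gene, and RPKM values that the authors computed from them; RPKM equalled counts over gene length and library total to within 5.55e-15. The total counts were 29279686 and 29001640 (QSC), 20859611 (ASC), 26351821 and 24446555 (Pax7-positive and Pax7-negative iMPC) and 23273130 (MEF).

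Counts of all 6 libraries were fitted with 1 coefficient per group by edgeR 4.0.16 (R 4.3.3; TMM scaling, default expression filter, quasi-likelihood F test, two-sided), with Benjamini-Hochberg adjustment over 17116 genes at 0.05. The biological coefficient of variation was 0.476, from 1 residual degree of freedom shared over genes. SE is the log2 difference over the square root of F. All 10 genes passed the filter. Pairs of lone libraries were compared by size only (4-fold, 5 CPM, prior count 2), with exact conditional binomial 95% intervals for counting error. Alternatives were DESeq2 1.42.0, other scalings, filters and prior counts, RPKM with a pseudocount of 0.1, and leaving out each QSC mouse. The procedure was tested on simulated data with a dispersion of 0.1, lower than the common dispersion of 0.227 in these data. The simulation therefore does not show how the procedure performs at the spread seen here. QSC libraries are separate mice by their labels, and each other group is 1 library.

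The 10 genes, the 4 lists of related genes and the marker lists were chosen with earlier results of these data known. From each list of related genes the 2 largest rises and falls past the threshold in Pax7-positive iMPCs and in MEF, and the 2 largest differences between the iMPC fractions past the rule of size, were named. Some genes that this rule picks are not reported here. Of the marker lists not described elsewhere, the 4 tendon markers summed to between 13.4 and 120 RPKM and the 6 Schwann cell markers to between 2.29 and 25.5 RPKM. Promoter sequences came from RefSeq's GRCm38.p6 entries and were matched by symbol, since no coordinates were moved between builds.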

Additional observations from a re-analysis of the deposited data

How the results depend on the processing

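No paired analysis was possible because each group other than QSC is 1 library and the labels give a mouse number only for QSC. Under 6 other settings of the test, the counts of higher genes among the 10 stayed within 1.5 times of those reported. Counts of lower genes moved. In ASC the count was 1 with library size scaling and 2 with only QSC and ASC in the fit. In Pax7-positive iMPCs it was 2 with DESeq2, without the filter on low counts and with only these groups in the fit, and 0 with library size scaling. Library size scaling took the median of the 10 genes to -0.74 in ASC, 0.73 in Pax7-positive iMPCs, 2.64 in Pax7-negative iMPCs and 4.92 in MEF, while the median of all genes went to 0.59, 0.60, 0.86 and 0.61. The small Pax7-positive median changed sign with DESeq2 size factors in edgeR (-0.0019), with a filter at 5 CPM (-0.11) and between the mice left out (0.094 without mouse 1 and -0.12 without mouse 3). The MEF median was between 3.86 and 4.92 with 1 mouse left out. Of the differences under 0.25 in size, that of Sparc in Pax7-positive iMPCs was -0.0093 with DESeq2 size factors, -0.11 with a filter at 5 CPM and between -0.20 and 0.35 with 1 mouse left out, that of Fbn1 was -0.11 with that filter and between -0.17 and 0.35 with 1 mouse left out, and that of Postn was between -0.031 and 0.50. Fbln2 in Pax7-negative iMPCs was -0.055 with DESeq2, -0.078 with its size factors, -0.068 with a filter at 5 CPM, -0.034 with only these groups and between -0.56 and 1.09 with 1 mouse left out. The share of higher among called genes, 58.9%, 54.8%, 64.8% and 58.5% in the order ASC, Pax7-positive, Pax7-negative and MEF, was 78.9%, 79.0%, 86.7% and 79.9% with library size scaling and 48.4%, 46.9%, 52.0% and 48.6% with DESeq2. With 1 CPM in place of 5 CPM, genes past the rule of size rose from 759 to 1283 (fractions), from 1217 to 1915 (Pax7-negative against MEF), from 1267 to 1920 (Pax7-positive against ASC) and from 1441 to 2217 (Pax7-negative against ASC), because more genes were eligible. The cause of the other shifts was not tested. Lone libraries have no replicate error of their own, and low levels such as the 20 counts of Postn in ASC carry wide counting intervals.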

Other observations

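Spp1, which encodes osteopontin, a secreted ligand of integrins and of the receptor Cd44, stood out among the relatives of these genes and was chosen after its values were seen. It measured 21.7 and 4.06 RPKM in the 2 QSC libraries, 6913 RPKM in ASC, 240 RPKM in Pax7-positive iMPCs, 2162 RPKM in Pax7-negative iMPCs and 1222 RPKM in MEF. The ASC library, with 203463 counts of this gene, was the highest, and none of the 4 lone libraries overlapped the QSC pair. The log2 rise over QSC was 8.45 ± 1.04 in ASC, 3.52 ± 0.88 in Pax7-positive iMPCs, 6.65 ± 0.98 in Pax7-negative iMPCs and 5.90 ± 0.95 in MEF (BH-adjusted p = 2.73e-05, 0.00945, 0.000183 and 0.00038, edgeR quasi-likelihood).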
